A study of Mus musculus with 6 samples.

Results

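Calcineurin is the phosphatase through which calcium reaches the NFAT transcription factors and TFEB, and the transcripts followed here are those of its subunits, of its RCAN regulators and of NFAT factors in mouse skeletal muscle. The 8 genes were chosen by name as the catalytic subunits Ppp3ca, Ppp3cb and Ppp3cc, the regulatory subunit Ppp3r1, the regulators Rcan1 and Rcan2, and the transcription factors Nfatc1 and Nfatc3. They were 8 of the 12393 genes that the array reads under a single symbol, and 17 of its 22626 probe sets, a probe set being a group of short oligonucleotides that together give 1 value for a transcript. Ppp3ca had 3 probe sets and each of the other genes had 2.

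Total RNA came from muscle of wild-type C57BL/6 mice. The labels call the arrays biological replicates, which is read here as 1 mouse per array. In 3 mice the muscle was injected with an adeno-associated virus (AAV) carrying murine Tfeb, named Tcfeb in the labels (TFEB overexpression group), and in 3 other mice with one encoding green fluorescent protein (the GFP control group). The labels put the mice at 1 month of age when injected, while the study's text calls them adult, and this difference is not settled here. According to the study's text the vectors were injected into the muscle and used the CMV promoter, which is not restricted to muscle fibres. Both groups received virus, so no array shows uninjected muscle.

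Calcineurin is a heterodimer of a catalytic A subunit, encoded by the Ppp3c genes, and a calcium-binding B subunit, and it is switched on by calcium. It removes phosphates from NFAT proteins, which then enter the nucleus, and in muscle it is known for linking nerve activity to the genes of slow fibres. It also dephosphorylates TFEB, which moves to the nucleus in the same way, and RCAN proteins bind the phosphatase and restrain it. An internal start of Rcan1 is known to respond to NFAT, so that its transcript is often read as a sign of calcineurin activity.

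Nfatc1 rose and Nfatc3 fell in the TFEB group, and among the calcineurin genes Ppp3cb showed the largest fall, at 1 of its 2 probe sets. The other Ppp3cb probe set stood at 0.16 (log2) and did not pass. Taking for each gene its probe set of highest mean, 3 of the 8 genes passed the threshold, where 13.5% of all genes did. A probe set passed at a limma adjusted p under 0.05 and a change of at least 1.5-fold. Nfatc1 was the 1 gene higher (8.62% of all genes were higher) and Ppp3cb and Nfatc3 were the 2 lower (4.9% of all genes were lower). The median log2 fold change was -0.38 over the 8 genes and -0.05 over all genes. With every probe set read, 6 of 17 passed (13.6% of all probe sets did), and Rcan1 and Rcan2 were then among the genes with a lower probe set. Of these, 2 were higher (7.51% of all probe sets) and 4 lower (6.11%). With no fold limit 9 of the 17 had an adjusted p under 0.05 by limma (32.6% of all probe sets), 2 of them higher (14.5%) and 7 lower (18.1%). By gene these were 5 of 8 (33.6% of all genes), 1 higher and 4 lower (16.8% of all genes either way). The arrays of the groups did not overlap at 3 probe sets that were higher (20.1% of all probe sets) and 9 that were lower (29.7%), so that 12 of 17 were separate where 49.9% of all were. By gene 6 of 8 were separate (51.1% of all genes), 1 higher (22.9%) and 5 lower (28.2%). The separation of arrays alone was thus common across the whole array.

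Windows around the transcription starts of 3 of the genes with a lower probe set past the threshold (Rcan1, Nfatc3 and Ppp3cb) are shown here. They are shown because calcineurin acts on NFAT and TFEB, whose binding letters can be looked for in them. Windows of Rcan2, the other such gene, and the first window of Nfatc3 are not printed, so those shown are a selection. Start windows from RefSeq (GRCm38.p6) were searched for 5 of the 8 genes, 9 windows in all. Each had 300 bases, with 250 before the start. No window of Ppp3ca, Ppp3cc or Nfatc1 was searched. The selection of member windows left out a chromosome that the shares over all windows, given below, kept. Whether this removed windows of all, some or none of these genes is not given here. The missing windows therefore do not show that RefSeq lacks a start for them. Capitals mark the letters GGAAA, the core that NFAT proteins bind (with TGGAAA as a longer form that contains it), and CACGTG, the E-box core (with TCACGTG as a longer form that contains it), all searched on both strands. The first Rcan1 window and the second Nfatc3 window hold the E-box, and the second Rcan1 window holds the NFAT letters. The Ppp3cb window belongs to the calcineurin gene whose brighter probe set fell most.

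Rcan1 chr16:92466120-92466419, - strand: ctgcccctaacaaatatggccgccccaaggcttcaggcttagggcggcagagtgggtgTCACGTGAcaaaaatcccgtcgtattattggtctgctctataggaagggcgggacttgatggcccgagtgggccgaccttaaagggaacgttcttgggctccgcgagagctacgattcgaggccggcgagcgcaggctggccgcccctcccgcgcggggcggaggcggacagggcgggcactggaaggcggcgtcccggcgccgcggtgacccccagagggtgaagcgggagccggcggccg

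Rcan1 chr16:92400029-92400328, - strand: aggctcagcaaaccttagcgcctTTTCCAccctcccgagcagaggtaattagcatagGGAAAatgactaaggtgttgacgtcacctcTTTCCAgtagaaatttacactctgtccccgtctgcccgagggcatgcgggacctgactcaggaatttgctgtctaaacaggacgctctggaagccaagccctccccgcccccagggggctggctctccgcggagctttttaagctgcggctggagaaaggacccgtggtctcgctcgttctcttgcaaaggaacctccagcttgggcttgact

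Nfatc3 chr8:106059340-106059639, + strand: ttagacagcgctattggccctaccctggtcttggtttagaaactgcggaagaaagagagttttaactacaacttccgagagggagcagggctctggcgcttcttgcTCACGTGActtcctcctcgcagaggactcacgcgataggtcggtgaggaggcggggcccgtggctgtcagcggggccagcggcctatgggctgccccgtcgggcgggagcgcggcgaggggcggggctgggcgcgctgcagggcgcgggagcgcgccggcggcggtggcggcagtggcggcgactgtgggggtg

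Ppp3cb chr14:20546524-20546823, - strand: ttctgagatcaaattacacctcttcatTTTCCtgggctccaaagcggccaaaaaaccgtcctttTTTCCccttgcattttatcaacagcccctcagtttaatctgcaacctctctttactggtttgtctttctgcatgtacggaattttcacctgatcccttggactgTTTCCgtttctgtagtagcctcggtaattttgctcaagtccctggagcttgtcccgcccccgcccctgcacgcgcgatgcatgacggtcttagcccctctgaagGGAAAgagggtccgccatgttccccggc

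Both E-boxes stand as TCACGTG read from either strand. In the first Rcan1 window its first base lies 192 bases before the start, and in the Nfatc3 window 144 bases before it. TCACGTG occurs in 3.77% of all 32851 windows and CACGTG in 7.15%. The second Rcan1 window, which surrounds the downstream start of the gene, holds TGGAAA at 2 places and GGAAA at a further 1. The Ppp3cb window holds GGAAA at 4 places and neither of the other letters. TGGAAA occurs in 21.4% of all windows and GGAAA in 61.3%, so the latter is common. Over all 9 windows, GGAAA was in 4 (among them the first windows of Rcan2 and of Nfatc3, not printed), TGGAAA in 1 and CACGTG in 2, while the Ppp3r1 window and the other 2 of Rcan2 held none of the letters. These matches describe the letters and do not show that a factor binds.

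**Figure D1:**
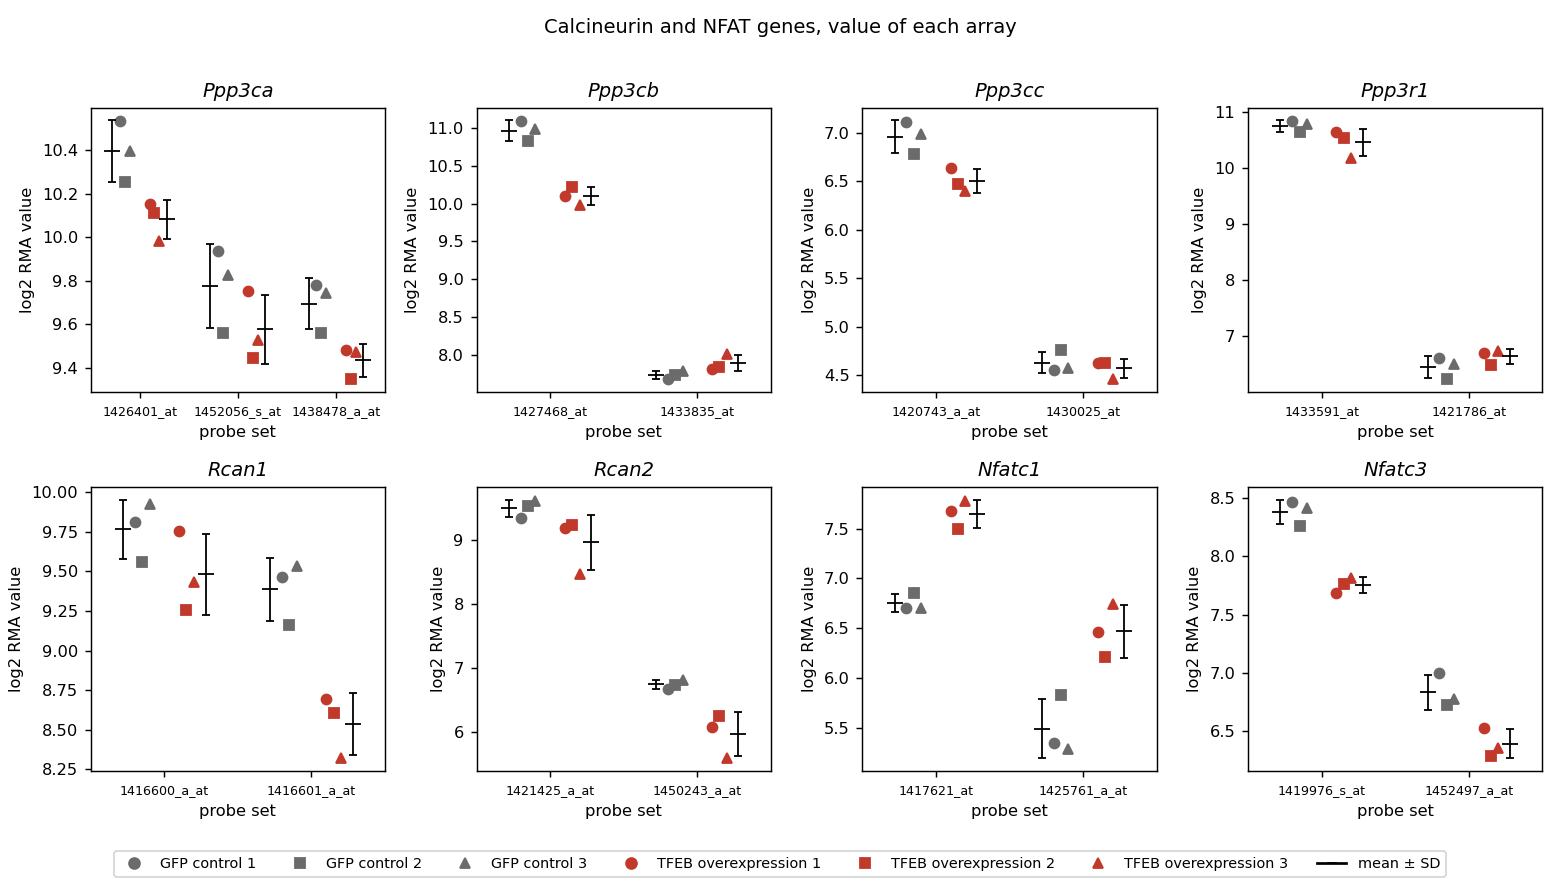
The log2 RMA value of each array is plotted for every probe set of the 8 genes, where grey stands for GFP control, red for TFEB overexpression, the symbol for the replicate and the black bar for the mean ± SD (n = 3 per group). Both Nfatc1 probe sets are higher in every TFEB array, at 7.50 to 7.78 against 6.70 to 6.86 for the brighter one, whereas the 2 probe sets of Ppp3cb move in opposite directions.

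The catalytic subunits were followed first. Ppp3cb encodes the beta form of the catalytic subunit, and its brighter probe set, 1427468_at, read log2 values of 11.08, 10.82 and 10.99 in GFP control replicates 1 to 3 and 10.10, 10.22 and 9.97 in TFEB overexpression replicates 1 to 3. Every TFEB array lay below every GFP array. The mean was 10.96 ± 0.13 (SD, n = 3) for the controls and 10.10 ± 0.12 (SD, n = 3) after TFEB overexpression. The log2 fold change was -0.87 ± 0.10 (SE), or 1.82-fold lower, at a limma adjusted p of 0.0019. Of all probe sets, 2.49% fell further. The fall was -0.81 to -0.94 over 15 alternatives of the processing that kept probe sets apart. Some of these, such as the replicate block and the intensity trend, left the fold change as it was.

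The other Ppp3cb probe set, 1433835_at, went the other way. It read 7.68, 7.73 and 7.79 in the GFP arrays and 7.82, 7.84 and 8.01 in the TFEB arrays, so that its groups did not overlap either, with all TFEB values above. Its log2 fold change was 0.16 ± 0.081 (SE) with a limma adjusted p of 0.18, and it did not pass. Averaging both probe sets gave a log2 fold change of -0.36, which is under the fold limit. The sources used here do not give which part of the transcript each probe set reads.

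Ppp3ca, the alpha form of the catalytic subunit, had lower values in the TFEB group at all of its 3 probe sets, each under the fold limit. The brightest, 1426401_at, read 10.54, 10.25 and 10.40 in the GFP arrays and 10.15, 10.11 and 9.98 in the TFEB arrays, with no overlap. Its log2 fold change was -0.31 ± 0.096 (SE, limma adjusted p = 0.046), and the adjusted p ran from 0.016 to 0.14 over the alternatives. It was over 0.05 with any array other than GFP control replicate 2 left out. The other probe sets of Ppp3ca gave -0.26 ± 0.087 (1438478_a_at, adjusted p = 0.060 by limma) and -0.20 ± 0.13 (1452056_s_at, adjusted p = 0.27 by limma).

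Ppp3cc, the gamma form, is known for its expression in testis. Its brighter probe set, 1420743_a_at, read 7.11, 6.78 and 6.99 in the GFP arrays and 6.64, 6.48 and 6.40 in the TFEB arrays. The groups did not overlap, and the log2 fold change was -0.46 ± 0.11 (SE, limma adjusted p = 0.022), under the fold limit. The adjusted p ran from 0.0059 to 0.078 over the alternatives, and it was over 0.05 without GFP control replicate 1 or 3 or without TFEB overexpression replicate 2 or 3. The dim probe set 1430025_at, brighter than 24.1% of all probe sets, lay between 4.46 and 4.76 in all 6 arrays, with overlap.

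Because Ppp3ca and Ppp3cb can each serve as the catalytic subunit of the enzyme, their changes were compared within each array. The log2 value of Ppp3ca minus that of Ppp3cb, taken relative to its GFP mean, was 0.02, -0.00 and -0.02 in the GFP arrays and 0.62, 0.46 and 0.58 in the TFEB arrays. The change of Ppp3ca thus exceeded that of Ppp3cb by 0.55 ± 0.049 (SE, n = 3 per group). This separation gave an exact two-sided permutation p of 0.1, the smallest that 3 arrays against 3 allow, and 0.125 after Benjamini-Hochberg adjustment over the 5 pairs of genes compared. Ppp3cb also fell further than Ppp3cc, by -0.41 ± 0.084 (SE), with the same exact p of 0.1. Both comparisons rest on the brighter probe set of Ppp3cb. When the probe sets of a gene were averaged, Ppp3ca against Ppp3cb gave 0.098 (exact permutation p = 0.4) and Ppp3cb against Ppp3cc -0.098 (exact permutation p = 0.3), neither beyond the spread of the arrays. The change of Ppp3ca against Ppp3cc was 0.14 and became -0.00023 in the same setting.

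Ppp3r1, which encodes the calcium-binding B subunit, did not pass at either probe set. The brighter one, 1433591_at, read 10.84, 10.65 and 10.78 in the GFP arrays and 10.65, 10.55 and 10.19 in the TFEB arrays. TFEB overexpression replicate 1 reached the lowest GFP value and replicate 3 lay furthest down, so the groups overlapped. The log2 fold change was -0.29 ± 0.13 (SE, 95% interval -0.61 to 0.02, limma adjusted p = 0.13). The other, 1421786_at, gave 0.19 ± 0.12 (95% interval -0.10 to 0.48, adjusted p = 0.27 by limma), so a fall of over 1.5-fold lay just inside the interval of the first and outside that of the second.

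**Figure D2:**
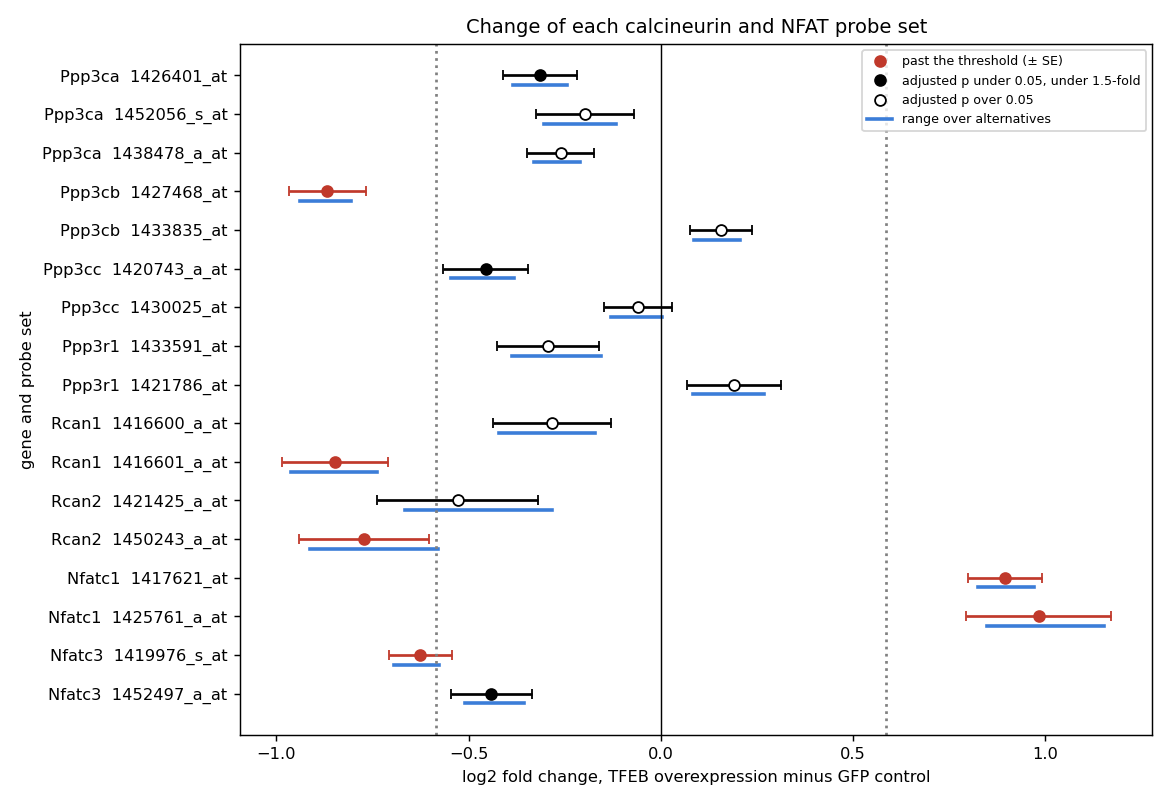
Each of the 17 probe sets is plotted with its change between the groups (log2, TFEB minus GFP) ± SE (n = 3 and 3), with the blue bar giving its range over the alternatives of the processing and the dotted lines the 1.5-fold limit. The 6 red points passed the threshold, and the 2 probe sets of Ppp3cb stand at -0.87 and 0.16.

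The RCAN genes encode proteins that bind calcineurin and inhibit it. Rcan1 was read by 2 probe sets that did not move equally. At 1416601_a_at the values were 9.46, 9.16 and 9.54 in the GFP arrays and 8.69, 8.60 and 8.32 in the TFEB arrays, so every TFEB array was lower. The log2 fold change was -0.85 ± 0.14 (SE, limma adjusted p = 0.0056), or 1.80-fold lower, with -0.74 to -0.96 over the alternatives. At 1416600_a_at the values were 9.81, 9.56 and 9.92 in the GFP arrays and 9.76, 9.25 and 9.43 in the TFEB arrays. Here TFEB overexpression replicate 1 lay among the GFP arrays, and the log2 fold change was -0.28 ± 0.15 (SE, 95% interval -0.65 to 0.08, limma adjusted p = 0.20). Averaging both probe sets gave -0.57 (limma adjusted p = 0.020), under the fold limit.

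The gap between the 2 Rcan1 probe sets thus changed by 0.56 between the groups, with an exact two-sided permutation p of 0.1 and 0.2 after Benjamini-Hochberg adjustment over the 10 pairs of probe sets of a same gene. The suffix marks probe sets that can match several transcripts of a gene, and Rcan1 has more than 1 start, as the windows above show. No source used here says which transcript each of the 2 reads.

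Rcan2 is the relative of Rcan1 known from brain and striated muscle. Its brighter probe set, 1421425_a_at, read 9.34, 9.53 and 9.61 in the GFP arrays and 9.18, 9.24 and 8.47 in the TFEB arrays. All TFEB values were lower, but replicate 3 lay far under the others and the SD of the TFEB group was 0.43. The log2 fold change was -0.53 ± 0.21 (SE, limma adjusted p = 0.095), and it did not pass. Without TFEB overexpression replicate 3 it was -0.28. The dimmer probe set, 1450243_a_at, read 6.66, 6.74 and 6.82 against 6.07, 6.25 and 5.58, again with TFEB overexpression replicate 3 lowest. It passed at -0.77 ± 0.17 (SE, limma adjusted p = 0.015), or 1.71-fold lower. Without TFEB overexpression replicate 3 the change was -0.58, under the fold limit, and without GFP control replicate 3 the adjusted p was 0.057. The fall of Rcan1 relative to that of Rcan2 differed by 0.25 ± 0.30 (SE, exact permutation p = 0.5), within the spread of the arrays. Leaving out TFEB overexpression replicate 3 made it 0.023 and leaving out replicate 2 of that group 0.50, while it was 0.12 without GFP control replicate 2 and 0.084 with probe sets averaged.

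The transcription factors moved in opposite directions. Nfatc1 encodes the NFAT protein that in muscle is tied to slow fibre genes, and outside muscle it is known for its part in osteoclasts, lymphocytes and heart valve endothelium. Its brighter probe set, 1417621_at, read 6.70, 6.86 and 6.70 in the GFP arrays and 7.67, 7.50 and 7.78 in the TFEB arrays. The mean rose from 6.75 ± 0.089 (SD, n = 3) to 7.65 ± 0.14 (SD, n = 3), by 0.90 ± 0.096 on the log2 scale (SE, limma adjusted p = 0.0015), or 1.86-fold. The second, 1425761_a_at, read 5.34, 5.83 and 5.29 against 6.46, 6.21 and 6.74, and rose 1.98-fold (0.98 ± 0.19 SE, limma adjusted p = 0.0097). Both probe sets placed every TFEB array above every GFP array, and the change of the first minus that of the second was -0.09 (exact permutation p = 0.6). Over the alternatives the rise was 0.83 to 0.97 for the first and 0.85 to 1.15 for the second, which missed an adjusted p of 0.05 with the methods' t-test (adjusted p = 0.056).

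Nfatc3, another NFAT factor of skeletal muscle, fell at its brighter probe set. Its values at 1419976_s_at were 8.46, 8.26 and 8.41 in the GFP arrays and 7.68, 7.77 and 7.81 in the TFEB arrays, with a gap between the groups wider than the range within either. The log2 fold change was -0.63 ± 0.082 (SE, limma adjusted p = 0.0027), or 1.54-fold lower. This lies close to the fold limit, and the change was under it without GFP control replicate 1 (-0.58) and with the arrays scaled to fast fibre genes (-0.58). The dimmer probe set, 1452497_a_at, read 7.0, 6.73 and 6.77 against 6.53, 6.29 and 6.35, with no overlap, and gave -0.44 ± 0.11 (SE, limma adjusted p = 0.021). Its adjusted p was over 0.05 with GFP control replicate 1 or 3 or TFEB overexpression replicate 2 or 3 left out, at up to 0.074.

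Within each array, Nfatc1 minus Nfatc3 stood at -0.14, 0.22 and -0.08 relative to its GFP mean in the GFP arrays and at 1.62, 1.36 and 1.59 in the TFEB arrays. The unequal change of the 2 factors was 1.52 ± 0.14 (SE, n = 3 per group), the widest of the 5 pairs of genes compared, with an exact two-sided permutation p of 0.1 and 0.125 after adjustment over the 5 pairs. TFEB overexpression replicate 2 gave the lowest of the TFEB values, and no GFP array came near it. Averaging the probe sets of each gene left it at 1.47.

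**Figure D3:**
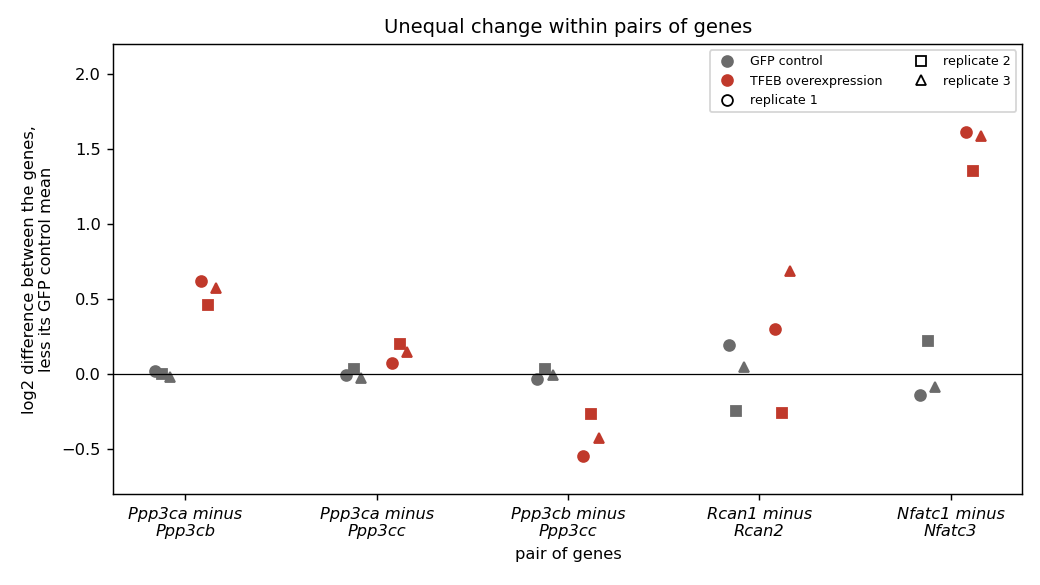
For each of 5 pairs of genes the log2 value of the first minus the second is plotted per array, less its GFP control mean, with controls drawn grey, TFEB arrays drawn red and the symbol naming the replicate. Nfatc1 against Nfatc3 lies at 1.36 to 1.62 in the TFEB arrays, whereas Rcan1 against Rcan2 overlaps between the groups.

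The genes whose profile over the 6 arrays lay closest to those of the members with the smallest p were then looked up among the other 12392 genes. Likeness was the root mean square difference of the log2 values, each taken relative to its GFP mean. For Nfatc1 the closest were Wdr6 (0.051), Snd1 (0.052) and Nrp2 (0.054), which rose by 0.88, 0.86 and 0.92 on the log2 scale. For Ppp3cb they were Emc4 (0.037), Jph1 (0.040) and Tmem185a (0.045), with log2 fold changes of -0.83, -0.90 and -0.90. Jph1 encodes a junctophilin, which holds the membranes of the calcium release unit of muscle together. Genes of like change between the groups rank high by this measure, so closeness does not show a shared function.

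GFP control replicate 2 stood apart from the other controls. It differed over 2-fold from them at 844 and 725 probe sets, where they differed from each other at 87 and the TFEB arrays among themselves at 45 to 101. Among the 17 probe sets described it gave the lowest GFP value at 11. Without it the same numbers passed, 6 probe sets and 3 genes, with changes of -0.94 for Ppp3cb, -0.96 for Rcan1 (1416601_a_at), 0.95 for Nfatc1 (1417621_at) and -0.68 for Nfatc3 (1419976_s_at). RNA quality was read from beta-actin, whose 3′ minus 5′ signal was 0.037 to 0.077 (log2) in control and 0.22 to 0.34 in TFEB arrays. For Gapdh the same measure was -0.071 to -0.061 in control and -0.038 to 0.053 in TFEB arrays. The part of RNA quality in the probe sets that disagree within Ppp3cb, Ppp3r1 and Rcan1 was not tested.

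Markers of other cell types moved between the groups as well, and Nfatc1 is known from several of these types. In bulk muscle fewer cells of a type and less RNA per cell cannot be told apart. Over all genes 8.62% rose past the threshold and 4.9% fell. Of 8 endothelial markers 5 rose, and their mean log2 level lay at 7.05 to 7.36 among controls and at 8.09 to 8.26 after TFEB overexpression. Of 8 genes of satellite cells and regenerating fibres 5 rose (6.06 to 6.25 against 8.18 to 8.53). These were Myog, Myf5, Myh3, Myh8 and Chrna1. Pax7, Myod1 and Cdh15 did not pass, at 0.26, 0.17 and 0.10, so the list was divided. Whether the number of satellite cells changed was not tested. Fibroblast markers rose at 4 of 7 (9.91 to 10.01 against 10.83 to 11.17). Of 12 macrophage markers 1 rose, Cd68, while 11 did without GFP control replicate 2, 4 with the replicate block and 9 with array weights. In GFP control replicate 2 their mean was 8.84, within the 8.07 to 8.90 of the TFEB arrays and above the 6.71 of the lowest control. No lymphocyte marker of 9 passed by limma, with 0 at an unadjusted p under 0.05 in either test. Without GFP control replicate 2, 2 of them rose past the threshold. Their mean lay at 4.87 to 6.12 among controls, highest in GFP control replicate 2, and at 5.03 to 5.25 after TFEB overexpression. The 7 muscle fibre markers, among them Ckm and Acta1, were bright in all arrays, at a mean of 13.81 to 13.86 in either group, and none of them passed by limma (1 at an unadjusted p under 0.05, and 4 with the methods' t-test). The part of these markers in the changes of Nfatc1 and the other members was not tested.

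The next question was what the other genes of the pathway did. Beside each list count below stand the shares over all genes, 8.62% higher and 4.9% lower past the threshold. None of 5 further family members passed by limma, with 4 at an unadjusted p under 0.05 by limma and 4 by the methods' t-test, and all 5 were above 0. Nfatc4, an NFAT gene of heart and brain, stood at 0.58 ± 0.10 (SE, adjusted p = 0.0069 by limma), just under the fold limit, and Rcan3, the third RCAN gene, at 0.47 ± 0.076 (SE, adjusted p = 0.0053 by limma). The median of these 5 was 0.35, against -0.05 over all genes. In 4 of the alternatives (without GFP control replicate 1, without TFEB overexpression replicate 2 or 3, and with the arrays scaled to fast fibre genes) 1 gene of this list was higher past the threshold.

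Proteins that anchor or bind calcineurin held 3 genes that rose and 1 that fell, of 9 (median 0.37). Lmcd1, a LIM-domain protein of striated muscle known to enhance calcineurin signalling, rose by 1.42 ± 0.11 on the log2 scale. Cib1, a calcium-binding protein known to anchor calcineurin at the membrane of heart muscle, rose by 0.94 ± 0.14, but its probe sets averaged 0.41, under the fold limit. Homer3, a scaffold known to compete with calcineurin for NFAT, rose by 0.65 ± 0.098, and was just under the limit with equal array medians (0.58). Its relative Homer1, a scaffold of calcium channels, fell by 1.76 ± 0.15. In this list 2 genes fell when probe sets were averaged or chosen by smallest p. The calsarcin genes of the Z-disc, whose proteins hold calcineurin there, gave -0.42 ± 0.074 for Myoz1, the fast fibre form, and 0.55 ± 0.12 for Myoz2, the slow fibre form, both under the fold limit at limma adjusted p of 0.0073 and 0.013.

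Kinases that return NFAT to the cytoplasm held 2 genes that fell and none that rose, of 9 (median -0.05, as over all genes). Dyrk1a, which primes NFAT for export from the nucleus, fell by 0.81 ± 0.12 (SE) and Mapk14, the p38 alpha kinase, by 0.71 ± 0.10 (SE). Prkaca, the catalytic subunit of protein kinase A, gave 0.54 ± 0.084 (SE, adjusted p = 0.0048 by limma), and the glycogen synthase kinase gene Gsk3b gave -0.18 ± 0.11 (SE, adjusted p = 0.23 by limma). A kinase of this list was higher in 2 of the alternatives, without TFEB overexpression replicate 2 and with the arrays scaled to fast fibre genes.

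Of 8 other substrates of calcineurin, 1 passed, and 3 were lower with the probe set of smallest p taken for each gene. This was Tfeb itself, whose single probe set fell by 0.77 ± 0.097 (SE, limma adjusted p = 0.0024) although the vector delivered this gene. No source used here says where that probe set lies relative to the delivered cDNA, and the value is therefore no check of the vector. The coactivator gene Crtc2 stood at 0.56 ± 0.083 (SE, adjusted p = 0.0041 by limma), while Mef2c, a muscle transcription factor that calcineurin also reaches, gave -0.13 ± 0.086. Without GFP control replicate 2, with array weights or with the arrays scaled to fast fibre genes, 1 gene of this list was higher. Of 9 calcium channel genes upstream of the enzyme none passed by limma (3 at an unadjusted p under 0.05, and 2 with the methods' t-test), and 1 was lower past the threshold with equal array medians. Mcoln1, the lysosomal channel known to feed calcium to calcineurin for TFEB, gave 0.34 ± 0.089 (SE, adjusted p = 0.027 by limma), the inositol trisphosphate receptor gene Itpr2 gave 0.46 ± 0.098 (SE, adjusted p = 0.014 by limma) and Ryr1, the calcium release channel of muscle, -0.52 ± 0.16 (SE, adjusted p = 0.049 by limma).

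**Figure D4:**
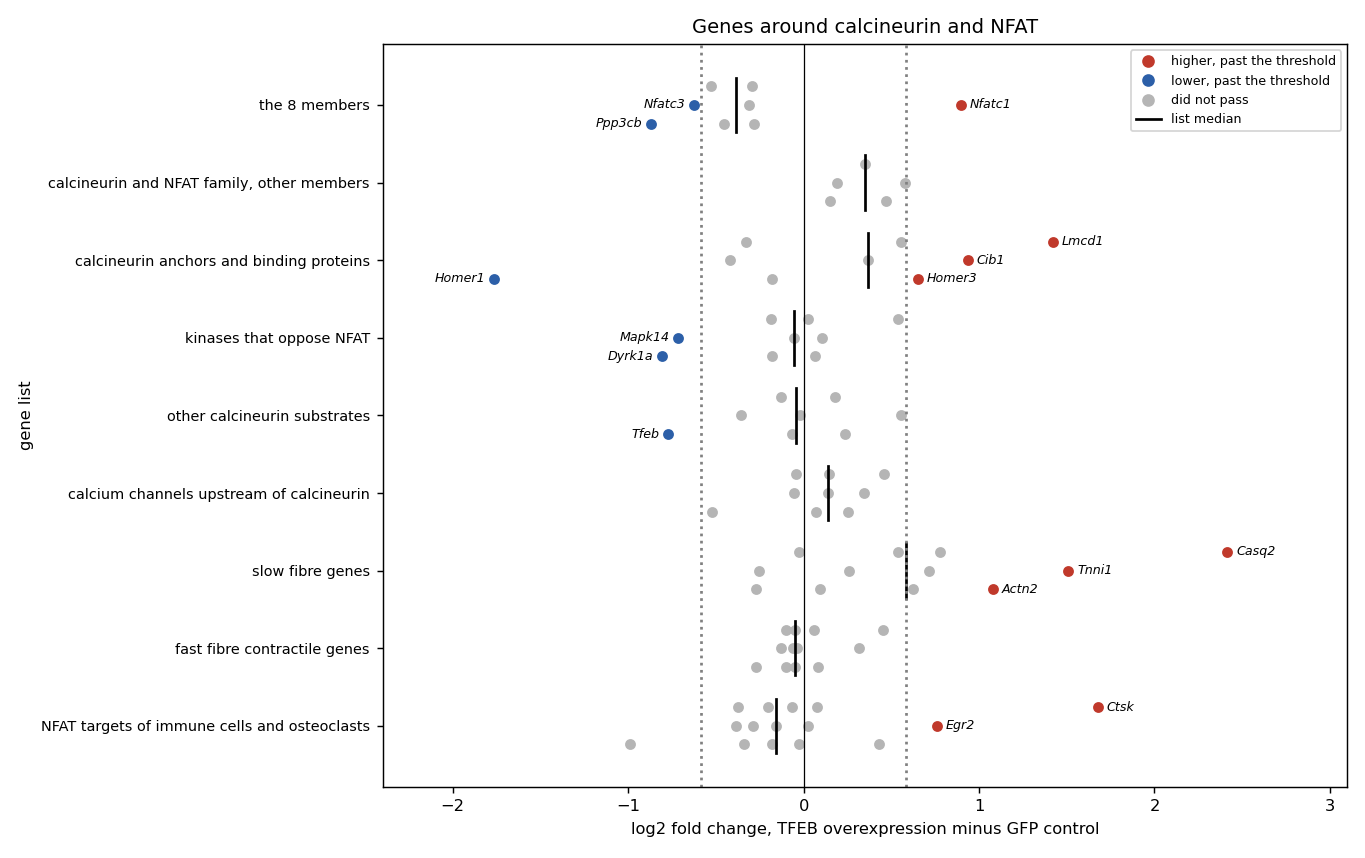
Each point is 1 gene by its probe set of highest mean, placed along the horizontal axis by its change between the groups (log2, TFEB minus GFP, n = 3 and 3), the 8 members in the top row and 8 lists below, black bars at the list medians and dotted lines at 1.5-fold. The genes past the threshold are named, from Homer1 at -1.76 to Casq2 at 2.41.

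The list of slow fibre genes, some of which NFAT and calcineurin are known to drive in muscle, held 3 genes of 12 that rose. None fell and 9 did not pass (median 0.58). Casq2, the calcium buffer of slow and cardiac muscle, rose by 2.41 ± 0.13 (SE) and Actn2, an alpha-actinin of the Z-disc, by 1.08 ± 0.083 (SE). Tnni1, the slow troponin I, rose by 1.51 ± 0.34 (SE, limma adjusted p = 0.017), and its adjusted p was over 0.05 in 4 settings, at 0.083 with the methods' t-test, 0.062 without GFP control replicate 3, 0.057 without TFEB overexpression replicate 1 and 0.067 without TFEB overexpression replicate 3. Myh7, the slow myosin heavy chain, gave 0.71 ± 0.39 (SE, adjusted p = 0.21 by limma) with overlap between the groups, and Myl2, Myl3 and the myoglobin gene Mb gave 0.26, -0.27 and 0.09. The mean level of the list ran from 10.20 (replicate 2) to 10.9955 among the controls and from 11.0219 to 11.40 in the TFEB arrays, so the groups nearly touched. The list held 5 genes past the threshold without GFP control replicate 1 or with the probe set of smallest p, and 6 with the replicate block.

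Of 12 fast fibre contractile genes none passed by limma, with 3 at an unadjusted p under 0.05 and 10 by the methods' t-test (median -0.05). Myh1, a fast myosin heavy chain, gave 0.45 ± 0.089 (SE, adjusted p = 0.011 by limma) and Actn3, the fast fibre alpha-actinin, -0.27 ± 0.065 (SE, adjusted p = 0.020 by limma). With the probe set of smallest p, 1 gene was lower. The mean level of the list was 13.86 to 13.89 in every array of both groups.

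Of 15 genes known as NFAT targets in immune cells and osteoclasts, 2 rose and none fell (median -0.16), where 8.62% of all genes rose. Ctsk, a cathepsin known from osteoclasts, rose by 1.68 ± 0.17 (SE, limma adjusted p = 0.0013). Acp5, Calcr, Itgb3 and Mmp9 of the same list gave 0.43, 0.08, -0.16 and -0.21, and none of them passed. Egr2, an early response transcription factor, stood at 0.76 ± 0.24 (SE, limma adjusted p = 0.047) with overlap between the groups, and its adjusted p was over 0.05 with any array other than GFP control replicate 2 left out, at up to 0.15. The cytokine genes Il2 and Il4 were dim in all arrays, at GFP means of 3.70 and 3.62, and gave -0.03 ± 0.085 and -0.37 ± 0.12.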

How the data were processed

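Total RNA of 6 muscles was read on Affymetrix arrays. The authors deposited log2 values per probe set, and affy and RMA are named in the submitters' processing notes. RMA corrects background, equalizes the distributions of the arrays and summarizes each probe set. Versions are not given in the sources used here. Quantile normalization partly removes a change shared by most transcripts. The number of arrays limits the precision.

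Of 22690 probe sets, 64 control probe sets were left out. GEO's platform annotation gave 1 symbol to 20380, several to 691 and none to 1555, and 20351 of the first were found in RefSeq GRCm38.p6 by Entrez identifier. Probe sets with several symbols, 1 of them naming a member, were not used. Groups came from the sample titles, and the 2-group comparison used limma 3.58.1 under R 4.3.3 (two-sided), adjusting over 22626 probe sets by Benjamini-Hochberg. Calls needed a 1.5-fold change besides an adjusted p under 0.05, the limits of the study's gene list. The study's array methods text was not among the sources used here. Fold changes are TFEB minus GFP, and adjusted p-values are from this fit unless a setting is named. The fit was tested on simulated data.

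The members, the 8 pathway lists and the 6 marker lists were chosen with earlier results of these data known. Of 147 list entries 130 had a probe set. Genes are represented by their probe set of highest mean. Named are the members, list genes past the threshold (or the 2 of smallest p), the 3 closest profiles of 2 members, and further list genes chosen after their values were seen. The labels call the arrays biological replicates. Alternatives were each array left out, a replicate block, 3 other scalings, array weights, an intensity trend, Student's test as the study's statistics paragraph names it (the methods' t-test), a brightness filter and other summaries of a gene's probe sets.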

Additional observations from a re-analysis of the deposited data

How the results depend on the processing

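The 8 genes and 17 probe sets kept most calls. With any 1 array left out, 2 to 3 genes, 5 to 6 of the member probe sets and 2429 to 4222 of all probe sets passed. Same-numbered arrays of the groups deviated from their group means with correlations of 0.42, 0.17 and -0.23, so their numbers were not taken as pairs. With the replicate block 3 genes, 6 member probe sets and 3052 of all probe sets passed, against 3082 without it, and 6 slow fibre genes rose in place of 3 and 4 macrophage markers in place of 1. With no fold limit, 5 genes and 7368 of all probe sets passed, and with the probe set of smallest p per gene 5 genes passed, Rcan1 and Rcan2 being added. That choice favours passing for any gene with several probe sets, as all members have. The share of all genes passing under it is not given here. With the probe sets of a gene averaged, 2 genes passed, since Ppp3cb (-0.36) and Nfatc3 (-0.53) fell under the fold limit and Rcan2 (-0.65) passed. With the methods' t-test at an unadjusted p under 0.05, 6 member probe sets passed and after Benjamini-Hochberg 4, Rcan2 (1450243_a_at, adjusted p = 0.070) and Nfatc1 (1425761_a_at) being lost. With the arrays scaled to fast fibre genes, 2 genes passed, Nfatc3 (-0.58) being under the limit. Directions turned at the dim probe set of Ppp3cc, 1430025_at, which ran from -0.096 to 0.0033 with 1 array left out (0.0033 without GFP control replicate 2), and in the difference between Ppp3ca and Ppp3cc, which was -0.00023 with probe sets averaged. The cause was not tested. Over all probe sets the median log2 fold change was -0.06, with equal array medians -0.13 and with fast fibre scaling -0.01. Probe sets near background limit the dimmest values.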
